A study of Mus musculus with 16 samples.

Results

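The messenger RNAs described here are those of 47 genes of autophagy and the lysosome in mouse rotator cuff muscle, chosen by name from a list that covers the core autophagy machinery, its cargo receptors, lysosomal enzymes and the lysosomal proton pump. All 47 were among the 11710 genes of the count table. RNA sequencing covered 16 samples in 4 groups of 4, which cross strain, C57BL/6J (BL6 here) or MRL/MpJ (MRL here), with surgery. Operated muscles had undergone a tenectomy, in which the tendon is cut out, plus denervation, and the other groups were unoperated controls. MRL/MpJ is an inbred strain known for unusual tissue repair, and the series title puts the question of whether the strains respond differently to a rotator cuff tear. The sample labels name the supraspinatus and the series text names the infraspinatus. Age, sex and the time from surgery to collection are not given in the sources used here. The labels do not say that the replicates came from separate animals, so p-values measure the spread between these samples, which may be technical.

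Autophagy encloses portions of cytoplasm, organelles and protein aggregates in a double membrane, the autophagosome, and delivers them to the lysosome for breakdown. The ULK kinases and a lipid kinase complex start the membrane, conjugation enzymes attach ATG8 proteins to it, cargo receptors bind ATG8 proteins, and acid hydrolases digest the content after fusion with a lysosome that a proton pump keeps acidic. In skeletal muscle this route takes part in the loss of fibre mass after denervation and in the clearance of damaged mitochondria.

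Total counts per sample ran from 24323862 to 43552964, at which 3 counts correspond to between 0.0689 and 0.123 CPM (reads counted for a gene, scaled to 1000000 per sample). The lowest mean of a member over all samples was 4.65 CPM, and all 47 passed the filter on low counts. The 12 skeletal muscle fibre markers were all present, with a summed level of 157680 to 221630 CPM in unoperated BL6 muscle and 67630 to 176914 CPM in operated BL6 muscle. In MRL the same sum was 143936 to 163596 CPM unoperated and 93018 to 120988 CPM operated. In bulk muscle, fewer cells of a type and less RNA per cell cannot be told apart. The total counts of the operated BL6 samples, at most 31094642, were all below those of the unoperated BL6 samples, at least 33679319. Mitochondrial genes took 12.2% to 14.2% of counts in unoperated and 17.4% to 23.8% in operated BL6 samples, and 11.0% to 11.6% in unoperated MRL samples. In operated MRL samples they took 20.1% to 24.9% in 3 samples and 11.8% in replicate 4. In a fit without mitochondrial genes, the 32 calls in BL6 and 23 in MRL described below were all kept, with 1 gained in MRL. That fit shows only that the calls do not rest on counting these genes. The part of mitochondrial content in the results was not tested. Several libraries stood apart from their groups. Unoperated BL6 replicate 1 had the lowest level of its group for 27 of the 47 members. Its macrophage and fibroblast marker sums, 102 and 1417 CPM, were the highest of its group. Without that library 33 members were called in BL6, in place of 32. Operated BL6 replicate 4 and unoperated MRL replicate 1 had macrophage marker levels several times those of the rest of their groups. Operated MRL replicate 4 had the highest level of its group for 27 of the 47 members and was the operated sample nearest to the unoperated ones for 15 of the 16 members that fell in MRL. Operated BL6 replicate 2 was highest for 28 of 47 and nearest to the unoperated samples for 15 of the 20 members that fell in BL6, and its fibre marker sum of 176914 CPM lay within the unoperated range. Without it, 36 members were called in BL6, 12 higher and 24 lower, in place of 12 and 20. The scaling factor of operated BL6 replicate 2, 0.830, was the lowest of its group. The members took 0.514% of its counts, in a group range of 0.513% to 0.690%. For these counts of members, the share over all genes is not given here, so they are not read as particular to the members.

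TFEB and TFE3, 2 members of the list, are transcription factors that bind a palindromic E-box, CACGTG, in promoters of many lysosomal genes. RefSeq promoters (GRCm38.p6, 250 bases before to 50 after a start site) were matched for 37 of the 47 members, and 30 of those 37 had every RefSeq start within 50 bases of a GENCODE transcript start. The other 7 were Atg7, Atp6v0a1, Atp6v0c, Ctsl, Gaa, Gabarap and Optn, so the positions given for Gaa (63 bases from the nearest GENCODE start), Ctsl (214 bases) and Atg7 (9066 bases) hold for the RefSeq start only. CACGTG, which reads the same on both strands, was present in 13 of the 37 members (35.1%). It was present in 12.1% of the 9128 tested genes with a promoter in the table and in 7.15% of all 32851 promoters of that length. The longer form TCACGTG, searched on both strands and always overlapping a CACGTG, was present in 10 members (27.0%), against 7.15% of tested genes and 3.77% of promoters. GTAAACA, a FoxO-type site searched on both strands, was found in none of the 37 windows and in 3.07% of tested genes. The 4 stretches shown belong to 2 members that fell after surgery in both strains, Lamp1 and Gaa, and to 2 proton pump subunits that rose in BL6, Atp6v0d1 and Atp6v0e, so that promoters of members moving in opposite directions can be compared. Capitals mark CACGTG.
Lamp1: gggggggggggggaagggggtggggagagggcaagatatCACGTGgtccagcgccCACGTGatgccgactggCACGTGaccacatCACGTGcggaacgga
Gaa: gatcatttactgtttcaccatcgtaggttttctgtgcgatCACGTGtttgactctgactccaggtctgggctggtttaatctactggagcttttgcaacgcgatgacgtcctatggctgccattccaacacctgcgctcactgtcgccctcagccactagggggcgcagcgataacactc
Atp6v0d1: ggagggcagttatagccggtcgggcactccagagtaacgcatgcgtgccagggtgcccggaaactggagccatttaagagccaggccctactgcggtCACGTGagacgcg
Atp6v0e: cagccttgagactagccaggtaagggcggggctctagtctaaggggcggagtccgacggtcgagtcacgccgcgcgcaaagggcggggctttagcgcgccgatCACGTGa

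Each stretch runs 5′ to 3′ on the gene's strand. The Lamp1 stretch is chr8:13159061-13159160 on the plus strand and ends at the base before the start site. The Gaa stretch is chr11:119267783-119267962 on the plus strand and also ends before the start site. The Atp6v0d1 stretch is chr8:105566055-105566164 on the minus strand, and the Atp6v0e stretch is chr17:26676296-26676405 on the plus strand, both ending 9 bases past the start site. Lamp1 held 4 copies, which began 61, 45, 28 and 15 bases before the start. The single copy of Gaa began 140 bases before the start, that of Atp6v0d1 began 3 bases before it, and that of Atp6v0e began 3 bases after it. A match of letters is a description and not a binding site.

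**Figure D1:**
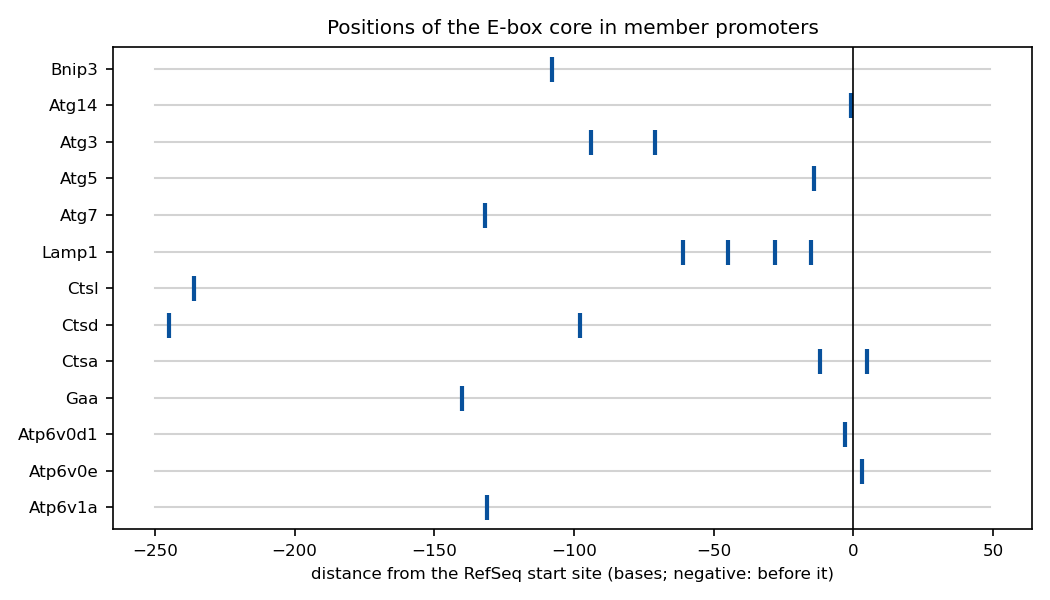
Positions of CACGTG in the RefSeq promoters of the 13 members that hold it, 1 row per gene, with the distance from the start site in bases on the horizontal axis and each mark at the first base of a match. Matches lie from 245 bases before to 5 bases after the RefSeq start, and Lamp1 holds 4; the starts of Gaa, Ctsl and Atg7 are over 50 bases from any GENCODE start.

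Holders of the motif moved in both directions. Of the 13, 4 rose, 4 fell and 5 did not pass the test in BL6, and 2 rose, 5 fell and 6 did not pass in MRL. Of the 24 members with a promoter and no CACGTG, 6 rose and 12 fell in BL6, and 3 rose and 8 fell in MRL. The transcripts of both factors are described with the other members below.

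Surgery changed members in both directions, with more falling than rising. The members that fell in both strains included the ULK kinases, Psap, Lamp1, Gaa and Npc1, and in BL6 most other initiation genes fell too. Those that rose in both strains included 3 of the 5 ATG8 genes, cathepsin L, Npc2 and the pump subunit Atp6v0e. A gene is called where edgeR's quasi-likelihood test gives a Benjamini-Hochberg adjusted p under 0.05 over all 11709 genes, and log2 fold changes are operated over unoperated unless stated. In BL6, 32 of 47 members were called, 12 higher and 20 lower. Of all genes tested 67.9% were called in BL6 (35.1% higher and 32.8% lower), so the share of members called, 68.1%, was near the background. In MRL, 23 of 47 members were called, 7 higher and 16 lower, or 48.9% of members against 45.0% of all genes (22.3% higher and 22.7% lower). The median log2 fold change of the members was −0.20 in BL6 and −0.16 in MRL, against 0.04 and 0.01 over all genes. Changes of at least 2-fold were called for 2 members that rose (Ctsz and Atp6v0e) and 3 that fell (Ulk1, Ulk2 and Npc1) in BL6, where 25.6% of all genes passed both limits. In MRL only Npc1 passed them, where 10.9% of all genes did. The BL6 groups did not overlap for 11 members that were higher and 18 that were lower, against 27.5% and 29.2% of all genes. In MRL 5 higher and 16 lower members had no overlap, against 17.0% and 16.7% of all genes.

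The balance of rises and falls depended on how samples were scaled. With scaling by total counts alone, 27 members were called in BL6, 14 higher and 13 lower, in place of 12 and 20, and the median of all genes moved from 0.04 to 0.18. Direction is therefore relative to the bulk of expressed genes. The members together took 0.592% ± 0.0312 of all counts in unoperated and 0.566% ± 0.0841 in operated BL6 samples (SD, n = 4), and 0.648% ± 0.0217 and 0.572% ± 0.0688 in MRL.

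**Figure D2:**
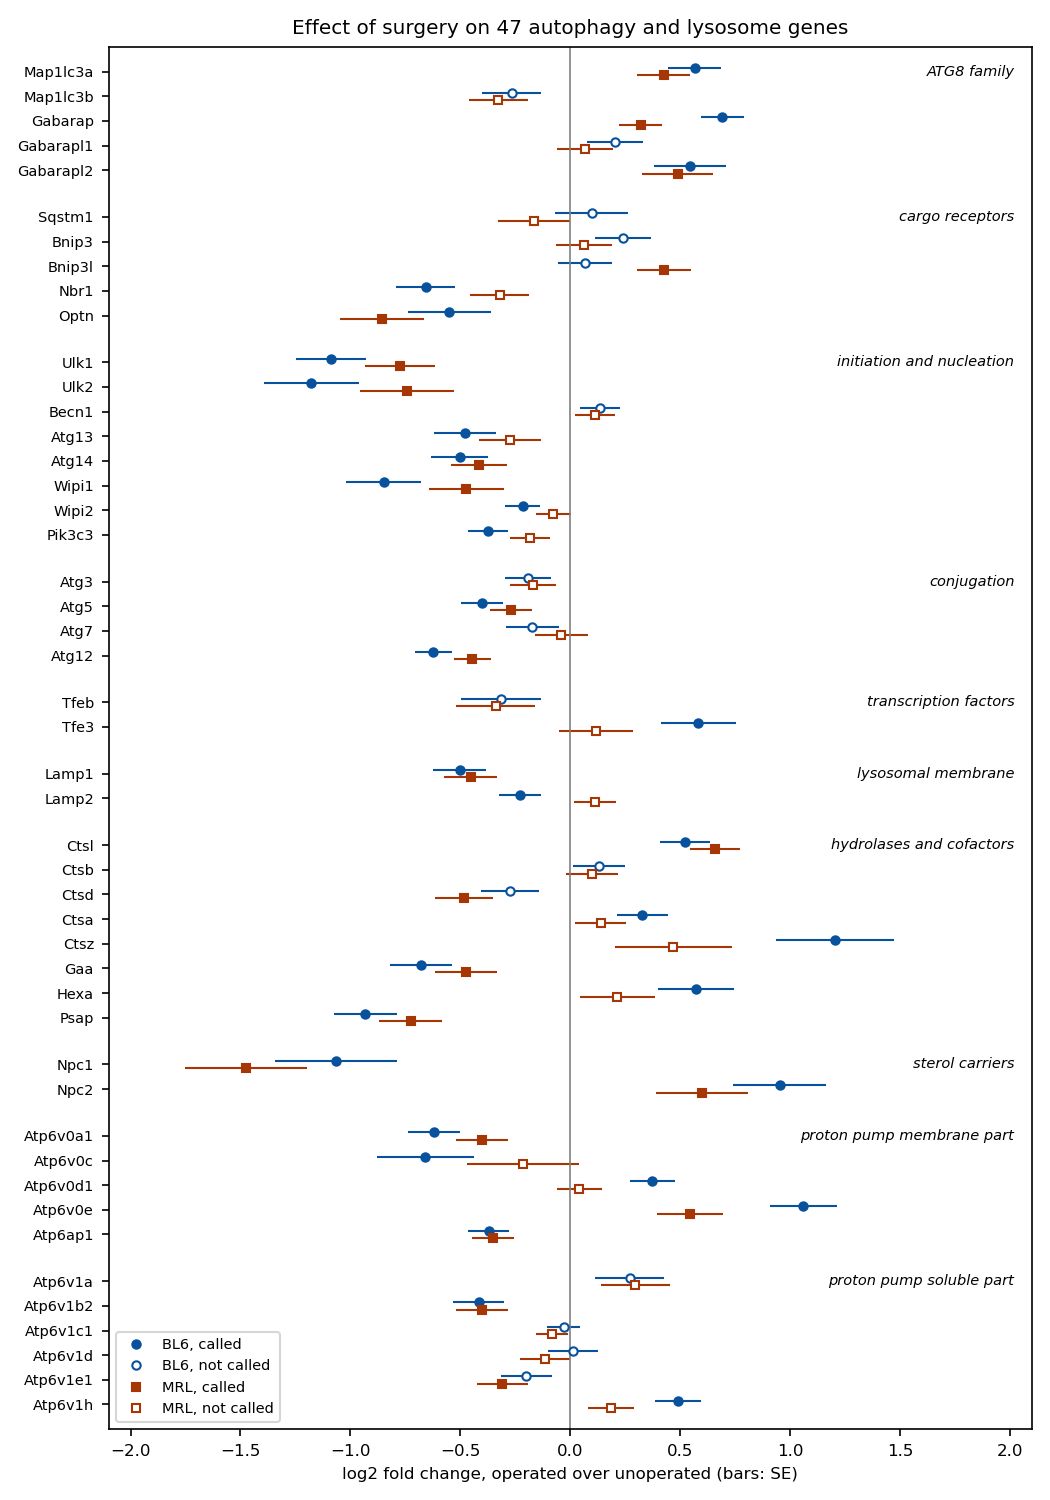
Log2 fold change with surgery (horizontal axis, operated over unoperated, bars are the SE of edgeR's fit) for each of the 47 members, grouped by role, in BL6 (blue circles) and MRL (red squares); filled symbols are called at an adjusted p under 0.05. Points lie on both sides of 0, 3 of 5 ATG8 genes are filled and right of 0 in both strains, and Ulk1, Ulk2, Psap and Npc1 are filled and left of 0 in both.

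Of the 47 members, 20 were called in both, 6 higher and 14 lower and none in opposite directions, 12 in BL6 alone, 3 in MRL alone and 12 in neither. Over all genes, 4783 were called in both, 3167 in BL6 alone and 489 in MRL alone. The sign of the estimate matched in 44 of 47 members (93.6%), against 87.7% of all genes. The estimate was larger in size in BL6 for 35 members (74.5%), close to the 76.2% of all genes. The interaction of strain and surgery tests that difference itself. In edgeR's quasi-likelihood test no member was called for the interaction, where 0.248% of all genes were, and 4 of 47 had an unadjusted p under 0.05, Gabarap, Lamp2, Atp6v0d1 and Atp6v0e, against 15.7% of all genes. DESeq2 called 1 member, Gabarap. A call in 1 strain only is therefore not shown to differ between strains.

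The ATG8 proteins are ubiquitin-like proteins coupled to lipid on the autophagosome membrane, where they hold cargo receptors and recruit the fusion machinery. Of the 5 genes, 3 rose in both strains and none fell in either. Gabarap (chr11:69991143-69994951) measured 139, 159, 160.0 and 158 CPM in the unoperated BL6 samples and 229.9, 260.1, 244 and 261 CPM in the operated ones. The MRL values were 182, 164, 149 and 169.7 CPM unoperated and 206, 211, 220.2 and 192 CPM operated. Every operated sample was above every unoperated sample of its strain, and the BL6 groups were further apart than the MRL groups. The log2 fold change was 0.69 (SE 0.10, edgeR adjusted p = 3.98e-05) in BL6 and 0.32 (SE 0.10, edgeR adjusted p = 0.0151) in MRL. The difference between strains, MRL effect minus BL6 effect, was −0.37 (SE 0.14), with an unadjusted p of 0.0146 and an edgeR adjusted p of 0.23. DESeq2 gave that difference an adjusted p of 0.0445.

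Map1lc3a, the gene of LC3A, went from 249 ± 13.7 to 369 ± 56.9 CPM (SD, n = 4) in BL6, a log2 change of 0.57 (SE 0.12, edgeR adjusted p = 0.000745). In MRL it went from 221 ± 21.9 to 296 ± 14.5 CPM, a log2 change of 0.42 (SE 0.12, edgeR adjusted p = 0.0107). Gabarapl2, a low-level GABARAP relative, rose by log2 changes of 0.54 and 0.49 from 11.7 and 13.4 CPM. Processed pseudogenes match parts of the Gabarapl2 transcript closely, so its level is uncertain. Its MRL call was lost in 5 of the 16 fits that each left out 1 library (edgeR adjusted p up to 0.0819), and that of Gabarap in MRL was lost without unoperated MRL replicate 3 (edgeR adjusted p = 0.0532). Map1lc3b, which encodes the LC3B often used to mark autophagosomes, had log2 fold changes of −0.27 and −0.33 and was not called in either strain. It was called lower in BL6 without unoperated replicate 1 (−0.37, edgeR adjusted p = 0.0177) or without operated replicate 2 (−0.41, edgeR adjusted p = 0.00522). In MRL it was called lower without unoperated BL6 replicate 1, operated BL6 replicate 2 or operated BL6 replicate 4 (edgeR adjusted p down to 0.0201). Gabarapl1 was not called either, at 0.20 and 0.07.

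Levels of the ATG8 genes can be ranked only per length of exon. Per kilobase of exon, unoperated BL6 muscle held 211 ± 11.6 CPM of Map1lc3a, 83.5 ± 5.36 of Gabarap, 31.1 ± 3.05 of Gabarapl1, 19.5 ± 2.84 of Map1lc3b and 5.03 ± 0.174 of Gabarapl2 (SD, n = 4). Neighbours in that order were separated by more than their SDs, which hold the spread between samples and not any error in the length. The length is that of all annotated exons of a gene, which may exceed the transcript expressed. It was 7.52 kilobases for Map1lc3b and 2.01 for Gabarapl1. Before division by length, Map1lc3b was above Gabarapl1 in every unoperated BL6 sample. After surgery the level of Map1lc3a was 312 ± 48.2 CPM per kilobase in BL6 and 251 ± 12.3 in MRL.

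Cargo receptors link marked proteins or organelles to ATG8 proteins. Of 5, 2 fell in BL6, and in MRL 1 fell and 1 rose. Nbr1, a receptor for ubiquitinated cargo, went from 124 ± 10.5 to 78.9 ± 11.7 CPM in BL6 (log2 change −0.66, edgeR adjusted p = 0.000612). In MRL it had a log2 fold change of −0.32 and missed the threshold, but it was called without operated MRL replicate 4 (−0.44, edgeR adjusted p = 0.00857) or unoperated MRL replicate 1. Optn, the ubiquitin receptor optineurin, fell by 0.55 on the log2 scale in BL6 and by 0.86 in MRL. The BL6 call of Optn was lost without operated BL6 replicate 4 (−0.42, edgeR adjusted p = 0.0557) or 3 (edgeR adjusted p = 0.0582). Sqstm1, which encodes the receptor p62, was not called, at 0.10 in BL6 and −0.16 in MRL.

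Bnip3 and Bnip3l encode mitochondrial outer membrane proteins that recruit autophagosomes to mitochondria. Bnip3l rose in MRL, from 24.8 ± 3.63 to 33.4 ± 6.08 CPM (log2 change 0.43, edgeR adjusted p = 0.0124), and this call was lost without operated MRL replicate 3 (edgeR adjusted p = 0.052). In BL6 Bnip3l was 34.5 ± 2.17 CPM unoperated and 36.2 ± 1.26 operated, at a log2 fold change of 0.07. Bnip3 was not called in either strain, at 0.24 and 0.06, and without operated BL6 replicate 4 it was called higher in BL6 (0.36, edgeR adjusted p = 0.0038). Near-identical copies of both genes lie elsewhere in the genome, so their levels are uncertain.

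Of the 8 genes that start the autophagosome, 7 in BL6 and 4 in MRL were called lower, and none was called higher. Ulk1 (chr5:110784488-110810097), the kinase that starts autophagy downstream of nutrient sensing, measured 97.9, 134, 128 and 117 CPM in unoperated BL6 samples and 53.2, 64.4, 58.6 and 48.3 CPM in operated ones. MRL samples gave 71.1, 97.2, 98.9 and 89.3 CPM unoperated and 45.6, 47.3, 45.2 and 70.3 CPM operated. The BL6 groups were well separated, while operated MRL replicate 4 came within 1 CPM of the lowest unoperated MRL sample. Ulk1 fell by 1.09 on the log2 scale in BL6 (SE 0.16, edgeR adjusted p = 5.9e-05) and by 0.77 in MRL (SE 0.16, edgeR adjusted p = 0.0026). Without operated MRL replicate 4 the MRL value was −0.96.

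Ulk2 (chr11:61775649-61855073), a related kinase with overlapping roles, measured 109, 119, 148 and 161 CPM in unoperated BL6 samples and 57.3, 84.4, 53.3 and 42.7 CPM in operated ones. The corresponding MRL levels were 101, 152, 173 and 153 CPM unoperated and 78.6, 88.2, 70.8 and 108 CPM operated. The BL6 groups did not overlap, but in MRL operated replicate 4 lay above unoperated replicate 1. Ulk2 fell by 1.18 on the log2 scale in BL6 (SE 0.22, edgeR adjusted p = 0.000268) and by 0.74 in MRL (SE 0.21, edgeR adjusted p = 0.0122).

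Pik3c3 encodes the lipid kinase VPS34 that makes the phospholipid of the growing membrane. It measured 23.7, 28.1, 26.0 and 26.0 CPM in unoperated and 20.5, 22.5, 19.8 and 17.3 CPM in operated BL6 samples, without overlap (log2 change −0.37, edgeR adjusted p = 0.00181). MRL muscle held 18.5, 19.4, 17.0 and 17.1 CPM unoperated and 16.2, 15.7, 16.05 and 15.6 CPM operated. These MRL groups did not overlap either, although the change of −0.18 was not called (edgeR adjusted p = 0.102). All MRL samples but unoperated replicates 1 and 2 lay below all BL6 samples.

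Among the other initiation genes, Wipi1, which reads that phospholipid, fell by 0.85 on the log2 scale in BL6, from 104 ± 10.9 to 57.8 ± 7.26 CPM, and by 0.47 in MRL, from 117 ± 12.9 to 84.4 ± 25.1 CPM. The MRL call of Wipi1 was lost in 6 of 16 fits that left out 1 library (edgeR adjusted p up to 0.106). Atg14, which directs VPS34 to autophagosome sites, fell by 0.50 and 0.42 on the log2 scale in BL6 and MRL, and lost its MRL call without unoperated MRL replicate 3 or operated MRL replicate 3 (edgeR adjusted p = 0.0565 and 0.0573). Atg13, a partner of ULK1, fell by 0.48 in BL6. In MRL Atg13 had a log2 fold change of −0.27 that missed the threshold, and without operated MRL replicate 4 it was −0.48 (edgeR adjusted p = 0.000527). Wipi2, a relative of Wipi1, fell by 0.22 in BL6, a call lost in 4 of 16 single-library fits (edgeR adjusted p up to 0.0705). Becn1, the Beclin 1 scaffold of the VPS34 complex, was the exception, with uncalled log2 fold changes of 0.13 and 0.11. Exons of Cntd1 on the other strand cover 43.9% of Becn1 exon sequence, and the use of strand in counting is not given in the sources used here.

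The conjugation enzymes couple ATG8 proteins to lipid. Atg12, a ubiquitin-like protein, fell from 37.2 ± 2.18 to 24.2 ± 1.69 CPM in BL6 (log2 change −0.62, edgeR adjusted p = 3.57e-05) and from 37.0 ± 1.14 to 27.1 ± 2.62 CPM in MRL (−0.45, edgeR adjusted p = 0.00179). Atg5, its conjugation partner, fell by 0.40 on the log2 scale in BL6 and by 0.27 in MRL, where the call was lost in 4 of 16 single-library fits (edgeR adjusted p up to 0.106). Atg3 and Atg7, the E2-like and E1-like enzymes, were not called in either strain. Their log2 fold changes were −0.19 and −0.17 for Atg3 and −0.17 and −0.04 for Atg7. Without operated BL6 replicate 2 Atg3 was called lower in BL6 (−0.29, edgeR adjusted p = 0.0169).

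The transcription factors Tfeb and Tfe3 switch on lysosomal genes when they enter the nucleus, a step that messenger RNA levels do not measure. Tfe3 rose in BL6 from 14.3 ± 2.14 to 21.4 ± 5.88 CPM (log2 change 0.58, edgeR adjusted p = 0.00686) and was not called in MRL (0.12). Tfeb was not called in either strain (−0.32 and −0.34). In BL6 it was called lower without operated replicate 2 (−0.51, edgeR adjusted p = 0.011) or without unoperated replicate 1.

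Lamp1 and Lamp2 encode the abundant glycoproteins of the lysosomal membrane. Lamp1 fell from 587 ± 40.5 to 414 ± 45.5 CPM in BL6 (log2 change −0.50, edgeR adjusted p = 0.0019) and from 552 ± 24.4 to 403 ± 56.1 CPM in MRL (−0.45, edgeR adjusted p = 0.00825). Lamp2 (chrX:38401357-38456454), whose forms also serve chaperone-mediated autophagy, measured 105, 93.7, 89.9 and 100.1 CPM in unoperated BL6 samples and 88.3, 79.1, 76.0 and 88.6 CPM in operated ones. Its MRL levels were 99.6, 102, 106 and 104 CPM unoperated and 109, 96.7, 115 and 124 CPM operated. The operated BL6 samples were all below the unoperated ones, while the MRL groups overlapped. The BL6 log2 change of −0.23 (SE 0.10) had an edgeR adjusted p of 0.0438, and the call was lost in 11 of 16 single-library fits (edgeR adjusted p up to 0.126). The MRL value was 0.11, and the difference between strains was 0.34 (SE 0.13, unadjusted p = 0.0231, edgeR adjusted p = 0.257).

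The lysosomal hydrolases and their cofactors moved in both directions: 4 of 8 rose and 2 fell in BL6, and 1 rose and 3 fell in MRL. Psap, whose product prosaposin is cut into activators of sphingolipid breakdown, had the highest level per kilobase of exon of all members in unoperated BL6 muscle, 355 ± 22.3 CPM per kilobase. It measured between 887 and 1029.9 CPM in unoperated and between 478 and 553 CPM in operated BL6 samples, and between 832 and 906 against between 448 and 721 CPM in MRL. Operated MRL replicate 4 was the sample at 721 CPM, and the other 3 were at most 493 CPM. Psap fell by 0.93 on the log2 scale in BL6 (SE 0.14, edgeR adjusted p = 8.18e-05) and by 0.73 in MRL (SE 0.14, edgeR adjusted p = 0.00213), or by 0.91 in MRL without that replicate.

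Gaa, the acid alpha-glucosidase that digests lysosomal glycogen, fell from 352 ± 30.2 to 219.8 ± 27.0 CPM in BL6 and from 289 ± 25.5 to 208 ± 41.1 CPM in MRL (log2 changes −0.68 and −0.47). Its MRL call was lost without unoperated replicate 2 or operated replicate 1 of MRL (edgeR adjusted p = 0.0513 for each). Ctsd, the aspartic protease cathepsin D, fell in MRL by 0.48 on the log2 scale (edgeR adjusted p = 0.0092). In BL6 the Ctsd value was −0.27 and was not called, though it was called without operated BL6 replicate 2 (edgeR adjusted p = 0.0274). An annotated gene on the same strand shares 34.4% of Ctsd exon sequence.

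Ctsl, the cysteine protease cathepsin L, was the hydrolase that rose in both strains. It measured between 103 and 122 CPM in unoperated and between 148 and 192 CPM in operated BL6 samples, and between 86.6 and 104 against between 126 and 162 CPM in MRL. No operated sample overlapped an unoperated sample of its strain. The log2 changes were 0.52 (SE 0.11, edgeR adjusted p = 0.00103) in BL6 and 0.66 (SE 0.11, edgeR adjusted p = 0.0012) in MRL, and the difference between strains (0.14, SE 0.16) was not called. Exons of an antisense gene cover 26.85% of Ctsl exon sequence, and a processed pseudogene on the same strand covers 6.09%. Ctsb, the related cathepsin B, was not called, with log2 fold changes of 0.13 and 0.10.

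**Figure D3:**
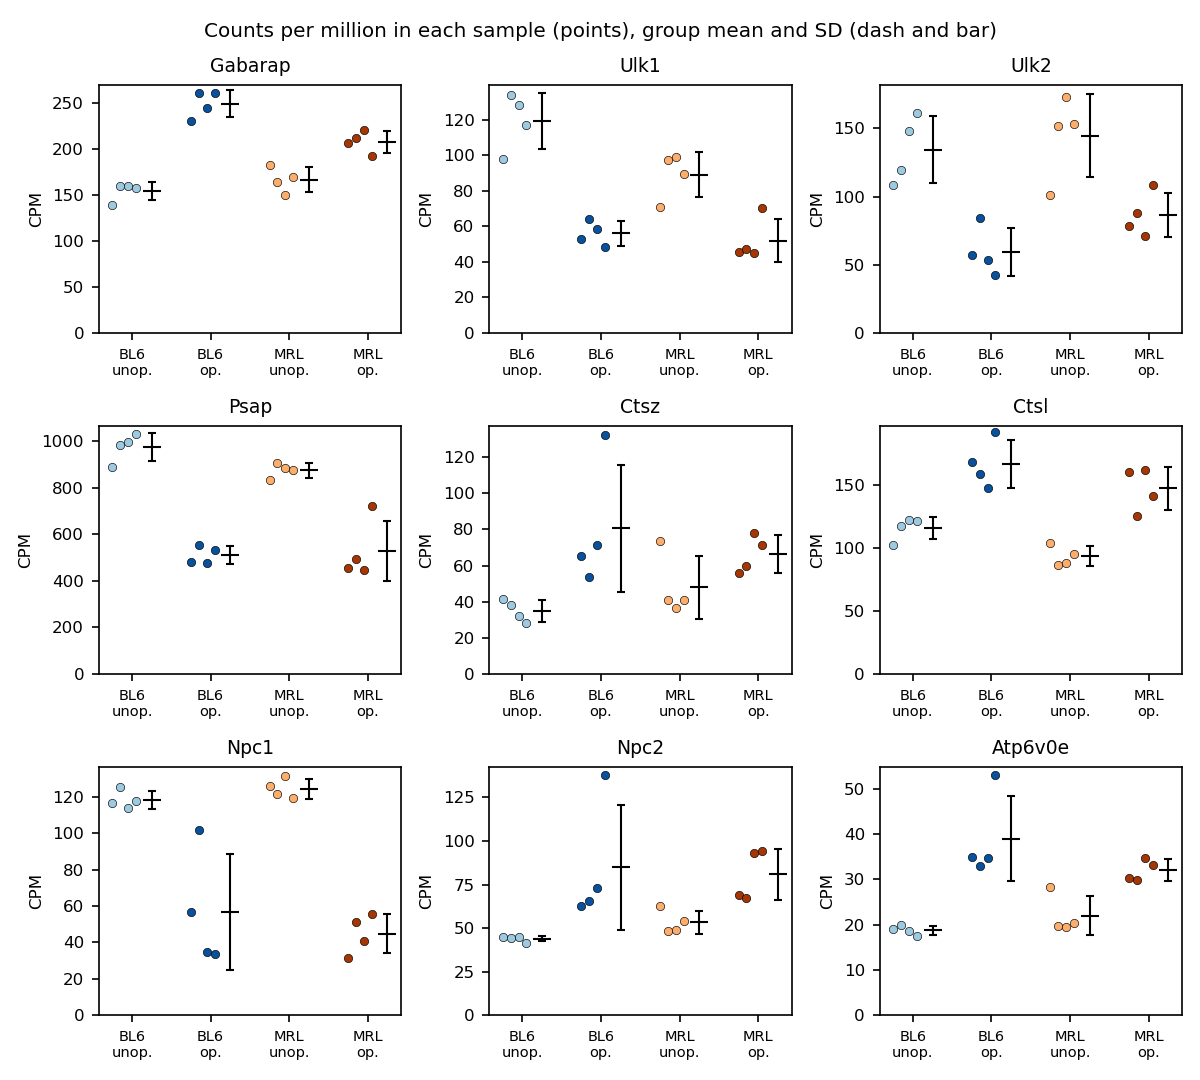
CPM of 9 members in each of the 16 samples (points, vertical axes from 0), with the mean (dash) and SD (bar) of each group of 4; unop. and op. are unoperated and operated. Gabarap and Ctsl are higher and Psap is lower in every operated sample than in the unoperated samples of its strain, and single samples stand out in Ctsz, Npc2 and Atp6v0e.

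Ctsz (chr2:174427493-174439039), the carboxypeptidase cathepsin Z, measured 41.8, 38.5, 32.0 and 28.3 CPM in unoperated BL6 samples and 65.5, 53.7, 71.5 and 132 CPM in operated ones. MRL samples held 73.8, 40.8, 36.3 and 41.2 CPM unoperated and 55.9, 59.9, 78.3 and 71.5 CPM operated. The BL6 groups did not overlap, and the highest value was that of operated replicate 4. In MRL only unoperated replicate 1 lay within the operated range. The BL6 log2 change was 1.20 (SE 0.27, edgeR adjusted p = 0.00116), and 0.85 without operated BL6 replicate 4. The MRL log2 fold change was 0.47 and not called (edgeR adjusted p = 0.155), and without unoperated MRL replicate 1 it was 0.76 and called (edgeR adjusted p = 0.0244).

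Hexa, a subunit of beta-hexosaminidase, rose in BL6 by a log2 change of 0.57, or 0.34 without operated BL6 replicate 4 (edgeR adjusted p = 0.0407), and was not called in MRL at 0.21. Ctsa, which protects other lysosomal enzymes, rose in BL6 by 0.33, a call lost without operated BL6 replicate 4 (0.26, edgeR adjusted p = 0.0698) or replicate 3 (edgeR adjusted p = 0.0513). In MRL its log2 fold change of 0.14 was not called, and without unoperated MRL replicate 1 it was 0.27 and called (edgeR adjusted p = 0.0495).

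Npc1 and Npc2 carry cholesterol out of the lysosome, Npc2 in its lumen and Npc1 in its membrane, and their transcripts moved in opposite directions in both strains. Npc1 measured 117, 125, 114 and 118 CPM in unoperated BL6 samples and 56.9, 102, 34.7 and 33.5 CPM in operated ones. The MRL values were 126, 121, 132 and 119 CPM unoperated and 31.6, 51.2, 40.6 and 55.8 CPM operated. All operated samples were lower, with operated BL6 replicate 2 closest to the unoperated level. Npc1 fell by 1.07 on the log2 scale in BL6 (SE 0.28, edgeR adjusted p = 0.0033) and by 1.48 in MRL (SE 0.28, edgeR adjusted p = 0.00173), the largest fall among the members in either strain.

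Npc2 (chr12:84754562-84773152) measured 44.8, 44.4, 44.7 and 41.5 CPM in unoperated BL6 samples and 62.6, 65.8, 73.0 and 138 CPM in operated ones. MRL samples gave 62.6, 48.5, 48.6 and 54.0 CPM unoperated and 68.9, 67.5, 93.0 and 94.0 CPM operated. The groups did not overlap in either strain. Npc2 rose by a log2 change of 0.95 in BL6 (SE 0.21, edgeR adjusted p = 0.0011), or 0.61 without operated BL6 replicate 4. In MRL it rose by 0.60 (SE 0.21, edgeR adjusted p = 0.0306), a call lost in 5 of 16 single-library fits (edgeR adjusted p up to 0.0892).

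The proton pump of the lysosome has a membrane part, through which protons pass, and a soluble part that splits ATP. Of 5 members of the membrane part, 2 rose and 3 fell in BL6, and 1 rose and 2 fell in MRL. Atp6v0e (chr17:26663231-26699647), a small membrane subunit, measured 19.0, 19.8, 18.5 and 17.5 CPM in unoperated BL6 samples and 35.0, 33.0, 34.8 and 53.2 CPM in operated ones. The corresponding MRL levels were 28.3, 19.7, 19.5 and 20.3 CPM unoperated and 30.2, 29.9, 34.8 and 33.3 CPM operated. The groups did not overlap in either strain, although unoperated MRL replicate 1 came close to the operated range. The log2 change was 1.06 in BL6 (SE 0.15, edgeR adjusted p = 4.66e-05), or 0.87 without operated BL6 replicate 4, and 0.55 in MRL (SE 0.15, edgeR adjusted p = 0.01). The difference between strains was −0.51 (SE 0.21, unadjusted p = 0.0277, edgeR adjusted p = 0.267).

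Atp6v0d1 (chr8:105524465-105566047), which joins the membrane part to the central stalk, measured 47.6, 43.8, 42.8 and 41.5 CPM in unoperated BL6 samples and 54.7, 63.5, 51.2 and 58.1 CPM in operated ones. MRL muscle held 57.8, 51.6, 45.3 and 58.2 CPM unoperated and 49.3, 61.2, 54.2 and 54.4 CPM operated. The BL6 groups were apart and the MRL groups overlapped. The log2 fold changes were 0.37 (SE 0.10, edgeR adjusted p = 0.00482) in BL6 and 0.04 (SE 0.10, not called) in MRL, and the difference of −0.33 had an unadjusted p of 0.0363 and an edgeR adjusted p of 0.29.

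Atp6v0a1, the large membrane subunit, fell by 0.62 and 0.40 on the log2 scale in BL6 and MRL, and Atp6ap1, an accessory protein of the pump, fell by 0.37 and 0.35. In the soluble part 2 of 6 were called in BL6 and 2 in MRL. Atp6v1b2, an ATP-binding subunit, fell by 0.42 and 0.40, with its MRL call lost without operated MRL replicate 3 (edgeR adjusted p = 0.0501). Atp6v1h, a regulatory subunit, rose in BL6 by a log2 change of 0.49 (SE 0.11, edgeR adjusted p = 0.000935) and was not called in MRL at 0.19. Atp6v1e1, a stalk subunit, fell in MRL by 0.31, a call lost in 8 of 16 single-library fits (edgeR adjusted p up to 0.124), and had an uncalled value of −0.20 in BL6, which was −0.30 and called without operated BL6 replicate 2 (edgeR adjusted p = 0.019). The catalytic subunit Atp6v1a (0.27 and 0.30) and the stalk subunits Atp6v1c1 (−0.03 and −0.08) and Atp6v1d (0.01 and −0.11) were not called in either strain.

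Levels were also compared between strains directly, MRL over BL6. Among unoperated samples 4 of 47 members (8.51%) were called, all lower in MRL, where 10.4% of all genes were called (5.02% higher and 5.36% lower). Among operated samples 4 were called, 2 higher and 2 lower in MRL, where 12.9% of all genes were called (7.60% higher and 5.27% lower). The strains did not overlap for 6 members that were higher and 6 that were lower in unoperated MRL samples, against 12.2% and 12.9% of all genes. Among operated samples 2 members were higher and 3 lower without overlap, against 7.41% and 6.16% of all genes. These 2 comparisons share no samples with each other. Atp6v0c and Pik3c3 were lower in MRL in both. Pik3c3 differed by −0.52 (MRL over BL6, SE 0.09, edgeR adjusted p = 0.000832) among unoperated and by −0.33 (SE 0.09, edgeR adjusted p = 0.0215) among operated samples. The second call of Pik3c3 was lost without operated BL6 replicate 1 or operated MRL replicate 2 (edgeR adjusted p = 0.0539 and 0.0531).

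Among unoperated samples Atp6v0a1 was lower in MRL, at 60.0 ± 4.93 against 85.1 ± 7.26 CPM (log2 difference −0.50, edgeR adjusted p = 0.0101). Bnip3l was lower too (−0.48, edgeR adjusted p = 0.0199), a call lost in 4 of 16 single-library fits (edgeR adjusted p up to 0.0779). Among operated samples Lamp2 was higher in MRL, at 111 ± 11.3 against 83.0 ± 6.45 CPM (log2 difference 0.42, edgeR adjusted p = 0.0078). Wipi1 was higher by 0.55 (edgeR adjusted p = 0.0448), a call lost in 12 of 16 single-library fits (edgeR adjusted p up to 0.132) and with the replicate number as a block (edgeR adjusted p = 0.0668). Without operated MRL replicate 4 the Wipi1 difference was 0.31. Members not called between strains were called without single libraries. Among unoperated samples these were Bnip3 without operated BL6 replicate 4 (0.28, edgeR adjusted p = 0.045), Ulk1 without operated MRL replicate 4 (−0.43, edgeR adjusted p = 0.0316) and Atp6v0d1 without unoperated MRL replicate 3 (0.34, edgeR adjusted p = 0.0488). Among operated samples they were Map1lc3a without operated BL6 replicate 4 (−0.39, edgeR adjusted p = 0.0312), Ulk2 without operated BL6 replicate 2 (0.76, edgeR adjusted p = 0.0189) and Atp6v0a1 without operated MRL replicate 4 (−0.43, edgeR adjusted p = 0.00774). Atg5 was called higher in operated MRL samples without operated BL6 replicate 4 or operated MRL replicate 3 (0.32 in each, edgeR adjusted p = 0.0464 and 0.0442). Fits to only the 2 groups compared called 9 members among unoperated samples and 1 among operated samples. The share of all genes called in those fits is not given here, so these counts cannot be read against the background.

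Atp6v0c (chr17:24163866-24169702), the proteolipid ring subunit through which protons pass, showed the largest strain difference of any member. It measured 9.85, 9.60, 10.9 and 10.6 CPM in unoperated and 6.01, 7.36, 6.16 and 6.40 CPM in operated BL6 samples. Its MRL levels were 0.917, 0.971, 1.42 and 0.786 CPM unoperated and 0.609, 1.42, 0.568 and 0.895 CPM operated. Every MRL sample was far below every BL6 sample. The log2 difference, MRL over BL6, was −3.32 among unoperated (SE 0.25, edgeR adjusted p = 1.11e-07) and −2.88 among operated samples (SE 0.25, edgeR adjusted p = 7.64e-07).

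The count table also holds Atp6v0c-ps2, a processed pseudogene on chromosome 6 that matches 39.3% of the Atp6v0c transcript (465 bases at 99.78% identity). Its level ran the other way, 0.0588 ± 0.0219 CPM in unoperated and 0.0198 ± 0.0228 CPM in operated BL6 samples against 4.30 ± 0.737 and 2.71 ± 1.37 CPM in MRL (SD, n = 4). The BL6 levels of the copy were at most 0.0793 CPM, at or near the level of 3 counts. Summed with its copy, Atp6v0c measured 10.3 ± 0.628 and 6.50 ± 0.615 CPM in BL6 and 5.32 ± 0.491 and 3.58 ± 1.55 CPM in MRL. On summed counts, an alternative chosen after the data were seen, the strain difference was −0.95 among unoperated (SE 0.22, edgeR adjusted p = 0.0116) and −0.85 among operated samples (SE 0.23, edgeR adjusted p = 0.0225). The rest of the Atp6v0c transcript has no such match in the copy. How reads from the matching stretch were divided between the gene and its copy is not known. The size of the Atp6v0c difference is therefore uncertain. With surgery Atp6v0c fell by 0.66 on the log2 scale in BL6 alone and summed. In MRL the value was −0.21 alone and −0.56 summed (edgeR adjusted p = 0.0556), neither called.

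**Figure D4:**
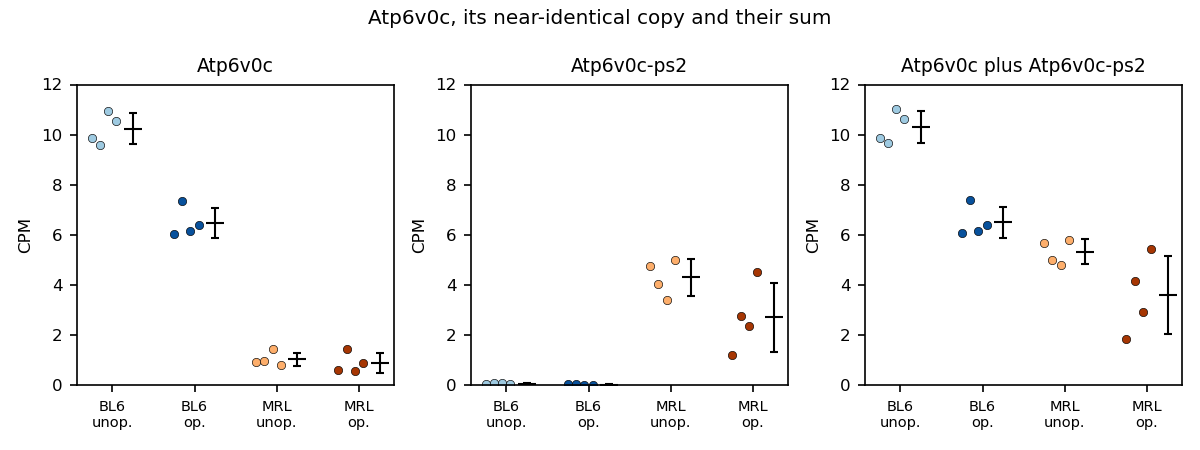
CPM of Atp6v0c, of its near-identical copy Atp6v0c-ps2 and of their sum in each of the 16 samples (points, with group mean and SD, n = 4, on one vertical scale from 0). Atp6v0c is near 1 CPM in MRL and between 6 and 11 CPM in BL6, the copy is near 0 in BL6 and between 1.22 and 5.01 CPM in MRL, and the sums lie closer together.

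Several of the members that rose are known to be abundant in macrophages, and macrophage markers moved with surgery. All 13 markers (Adgre1, Csf1r, Cd163, Mrc1, C1qa, C1qb, C1qc, Fcer1g, Tyrobp, Cd14, Itgam, Ptprc and Cx3cr1) were in the table, and none was at 0 in any sample. Their summed level was 36.7 to 102 CPM in unoperated and 88.8 to 577 CPM in operated BL6 samples, and 72.2 to 375 CPM in unoperated and 123 to 245 CPM in operated MRL samples. Operated BL6 replicate 4 was the sample at 577 CPM, and unoperated MRL replicate 1 the one at 375 CPM. In BL6 10 of the 13 rose, and in MRL 1 did, with none called for the interaction. The same 2 samples had the highest level of their groups for 10 members, Gabarap, Bnip3l, Tfe3, Ctsl, Ctsb, Ctsa, Ctsz, Hexa, Npc2 and Atp6v0e. Of these, 8 were called higher in BL6, and 7 were still called without operated BL6 replicate 4, while Ctsa was not (0.26, edgeR adjusted p = 0.0698). Ctsz, Npc2, Hexa and Atp6v0e were chosen for the plot against macrophage markers after their values were seen. Operated BL6 replicate 4 and unoperated MRL replicate 1 also had the highest fibroblast marker sums of their groups, 5930 and 2059 CPM. Their adipocyte marker sums, 2455 and 599 CPM, were the highest of their groups too, but unoperated MRL replicate 4 was close at 596 CPM. The markers Adipoq, Plin1, Cidec and Pnpla2 were higher in that replicate 4 than in unoperated MRL replicate 1. Fabp4 and Cfd were lower in it. For how many of all genes both samples were highest is not given here. The part of RNA from macrophages or other cell types in the level of the 10 members was not tested.

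**Figure D5:**
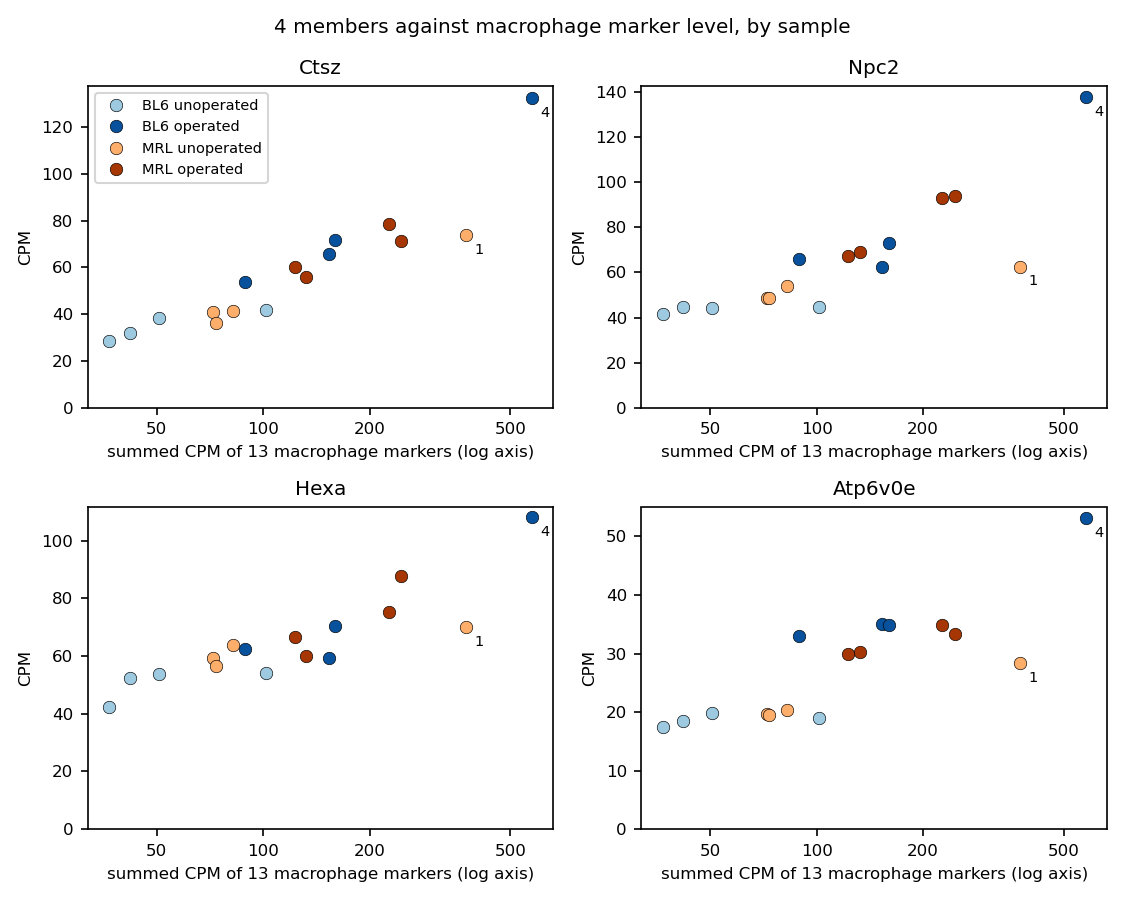
CPM of Ctsz, Npc2, Hexa and Atp6v0e (vertical axes, from 0) against the summed CPM of 13 macrophage markers (horizontal log axis) in the 16 samples, coloured by group. Operated BL6 replicate 4 (labelled 4, 577 CPM of markers) and unoperated MRL replicate 1 (labelled 1, 375 CPM) lie furthest right and have the highest member level of their group.

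Markers of other cell types were called higher after surgery in part. Of 6 adipocyte markers 5 rose in each strain, of 6 endothelial markers 5 rose in BL6 and 6 in MRL, and all 5 Schwann cell and nerve markers rose in both. Of 7 fibroblast markers 3 rose in BL6 and none was called in MRL by edgeR, where 1 had an unadjusted p under 0.05. None of 3 red blood cell markers was called in either strain by edgeR, and 0 had an unadjusted p under 0.05. The summed level of 6 adipocyte markers, with Lep not in the table, was 543 to 587 CPM in unoperated and 1612 to 2455 CPM in operated BL6 samples, and 500.04 to 599 against 1657 to 2206 CPM in MRL. The 6 endothelial markers summed to 312 to 416 against 656 to 818 CPM in BL6 and to 238 to 332 against 337 to 847 CPM in MRL, where 337 CPM was operated replicate 4. The 7 fibroblast markers summed to 593 to 1417 against 851 to 5930 CPM in BL6, the last being operated replicate 4, and to 1201 to 2059 against 1511 to 3106 CPM in MRL. The 5 Schwann cell and nerve markers summed to 58.3 to 74.9 against 139 to 341 CPM in BL6 and to 43.0 to 86.5 against 82.8 to 235 CPM in MRL. The 3 red blood cell markers summed to 333 to 1356 against 364 to 790.4 CPM in BL6 and to 280.02 to 1670.3 against 671 to 5399.8 CPM in MRL, so the groups overlapped. Their part in the results on the members was not tested.

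Further genes of the route, 135 listed by function and 126 in the table, also moved in both directions. In BL6 38 rose and 51 fell, and in MRL 13 rose and 39 fell, with none called for the interaction by edgeR. In total 70.6% of the 126 were called in BL6 and 41.3% in MRL, near the 67.9% and 45.0% of all genes. By direction, 30.2% rose and 40.5% fell in BL6, against 35.1% and 32.8% of all genes. In MRL 10.3% rose and 31.0% fell, against 22.3% and 22.7% of all genes. Of 16 other genes of the start of autophagy, 4 rose and 9 fell in BL6, and 2 rose and 6 fell in MRL. Atg9a, whose product supplies lipid to the new membrane, fell from 95.2 ± 16.1 to 9.08 ± 1.32 CPM in BL6 (log2 change −3.39, SE 0.56, edgeR adjusted p = 0.000124). In MRL Atg9a fell from 60.4 ± 16.2 to 15.5 ± 18.6 CPM (−1.95, SE 0.52, edgeR adjusted p = 0.00893). Wdr45, a relative of the WIPI proteins, rose by 0.51 in BL6 and 0.36 in MRL.

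Of 12 genes of autophagosome fusion, 2 rose and 9 fell in BL6, and 2 rose and 8 fell in MRL. Epg5, a tether, fell by 1.29 on the log2 scale in BL6 and by 0.91 in MRL, while Vamp8, a lysosomal SNARE protein, rose by log2 changes of 1.01 and 0.66. Of 7 genes of ATG8 conjugation and cleavage, 1 rose and 3 fell in each strain. Atg16l2 rose by 1.18 in BL6 and 0.84 in MRL, and the protease gene Atg4c fell by 1.10 and 0.78. Of 9 further cargo receptors, 1 rose and 5 fell in BL6, and 5 fell in MRL. Bcl2l13, a mitophagy receptor, fell by 1.37 and 0.74, while Phb2 rose by 0.29 in BL6 and was not called in MRL at 0.09.

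Of 41 further hydrolases and cofactors, 17 rose and 7 fell in BL6, and 3 rose and 6 fell in MRL. Acp5, an acid phosphatase of macrophages and osteoclasts, had the largest rise in BL6 (3.49, SE 1.19, edgeR adjusted p = 0.0173), at 20.5 ± 26.1 CPM in operated samples, and was not called in MRL at −0.68. Gla, an alpha-galactosidase, fell by 0.82 in BL6 and 0.51 in MRL. Of 18 genes of the lysosomal membrane and transport, 4 rose and 8 fell in BL6, and 1 rose and 6 fell in MRL. Laptm5, a membrane protein of blood cells, rose by 2.25 in BL6, to 23.7 ± 20.4 CPM, and was not called in MRL at 0.08. Sort1, a sorting receptor gene, fell by 1.55 and 1.05.

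Of 7 other pump subunits in the table, 5 rose and 1 fell in BL6, and 2 rose and 1 fell in MRL. Tcirg1, a membrane subunit known from osteoclasts and immune cells, rose by 1.496 in BL6, to 32.0 ± 14.7 CPM, and was not called in MRL at 0.84 (edgeR adjusted p = 0.0543). Atp6v0a2, another form of that subunit, fell by 0.44 and 0.25. Of 16 further regulators, 4 rose and 9 fell in BL6, and 2 rose and 4 fell in MRL. Depp1, a FoxO target, rose by 2.09 and 1.60, and Prkaa2, a catalytic subunit of the energy sensor AMPK, fell by 1.97 and 1.18.

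In the authors' deposited table of comparisons, 13 members were higher and 19 lower after surgery in BL6 at a false discovery rate under 0.05. In MRL the authors' deposited table gave 10 members higher and 18 lower. It shared 31 of the 32 calls made here in BL6 and all 23 in MRL, in the same direction. Between unoperated strains it gave 1 member higher and 5 lower in MRL, and shared all 4 calls made here. Between operated strains it gave 1 higher and 2 lower, and shared 3 of 4. Its log2 fold changes of members differed from those here by up to 0.327. The share of all genes under that rate in the authors' comparisons is not given here. These counts of members are therefore not read against a background.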

How the data were processed

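RNA of minced muscle was sequenced, per the labels' protocols. FastQC, STAR, edgeR and the mm10 build are named in the submitters' processing notes without versions. The counting program, annotation and use of strand are not given in the sources used here. The authors deposited whole-number counts per gene, with no normalization, in 1 table that leaves out genes of low expression by a rule not stated. Their second deposited table gives log2 fold changes, p-values and false discovery rates for 4 comparisons, per the file headers.

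From the deposited counts, edgeR 4.0.16 in R 4.3.3 fitted 1 mean per group by quasi-likelihood to all 16 samples, with trimmed mean of M values (TMM) scaling and filterByExpr (minimum count 10), which kept 11709 genes. Benjamini-Hochberg adjustment ran over these genes, with calls under 0.05. CPM used TMM-scaled totals, and means and SDs are over 4 samples. The test was checked on simulated counts in which only a small share of genes changed. In the data 67.9% of all genes were called in BL6, and the check does not cover change on that scale. Total counts per sample of 24323862 to 43552964 set the counting precision, and 3 counts was taken as the floor. The count table was complete for the 47 members, and no replicate pair agreed within sampling noise (lowest chi-square per degree of freedom 14.7).

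The members and lists were chosen with earlier results of these data known. All members are named. Values in every sample are given for members called with a log2 fold change of 1 or more in size, with an unadjusted interaction p under 0.05, or called between strains in both states. Of each list of other genes, the largest called rise and fall in BL6 are named. Gene positions and exon lengths come from GENCODE M21 (mm10), and promoters from RefSeq. Alternatives were relative log expression and total-count scaling, mitochondrial genes left out, DESeq2 1.42.0, limma 3.58.1 (voom), other filters, a threshold of 0.01, fits to only the groups compared, a replicate block, and leaving out libraries. The labels do not say that a replicate number marks shared animals or days, so the fits above have no block. A comparison of ATG8 protein sequences was planned and not analysed here.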

Additional observations from a re-analysis of the deposited data

Results flagged for a closer look

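Dixon's test flagged 21 of 188 groups of 4 samples in which 1 sample lay far from the other 3, where chance at the 5% level would flag about 9.4. Of these flags, 4 each fell on unoperated BL6 replicate 1, operated BL6 replicate 4, unoperated MRL replicate 1 and operated MRL replicate 4. All values are CPM, given with the range of the other 3 samples of the group where the gap is wide.

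In unoperated BL6 muscle, replicate 1 was the lowest sample for Map1lc3b (114.9, others 155 to 161), Gabarap (139, others 158 to 160.05), Wipi2 (43.6) and Atp6v1c1 (33.5). Replicate 2 was highest for Ctsd (621), and replicate 4 was lowest for Hexa (42.4) and Npc2 (41.5).

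In operated BL6 muscle, replicate 4 was highest for Npc2 (138, others 62.6 to 73.0) and Atp6v0e (53.2, others 33.0 to 35.0). It was lowest for Bnip3 (85.8, others 128 to 133) and Wipi1 (47.001, others 60.5 to 62.5). Replicate 3 was lowest for Gabarapl1 (61.0, others 75.0 to 76.3), and replicate 1 was highest for Atg13 (37.9).

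In unoperated MRL muscle, replicate 1 was highest for Tfe3 (21.3, others 15.9 to 16.1), Ctsb (468), Ctsz (73.8, others 36.3 to 41.2) and Atp6v0e (28.3, others 19.5 to 20.3).

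In operated MRL muscle, replicate 4 was highest for Ulk1 (70.3, others 45.2 to 47.3), Atg13 (54.8, others 33.2 to 34.7) and Psap (721, others 448 to 493). It was lowest for Becn1 (73.8, others 83.9 to 85.6).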

How the results depend on the processing

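No called member reversed direction under any alternative run. Of the 32 members called in BL6, 23 were called in every alternative, as were 10 of 23 in MRL, 2 of 4 between unoperated and 1 of 4 between operated strains. Leaving out 1 library gave 28 to 36 members called in BL6 (36 without operated BL6 replicate 2), 15 to 25 in MRL (15 without operated MRL replicate 3), 3 to 5 between unoperated strains, 2 to 5 between operated strains (2 without operated BL6 replicate 1 or operated MRL replicate 2) and 0 for the interaction. At an adjusted p under 0.01, 9 members were called in MRL, 2 between unoperated and 2 between operated strains. Fits to only the groups compared called 9 between unoperated and 1 between operated strains. DESeq2 called 1 member for the interaction. Leaving out operated BL6 replicate 4, unoperated MRL replicate 1 and operated MRL replicate 4 together, chosen after the data were seen, gave 33 in BL6, 28 in MRL, 7 and 5 between strains and 0 for the interaction. Total-count scaling called 27 in BL6 (7 lost and 2 gained) and 16 in MRL (8 lost and 1 gained), and moved the median of the members in BL6 to −0.08 and that between unoperated strains to 0.21. The 5 CPM filter removed Atp6v0c. With the replicate number as a block, 33, 23, 0, 4 and 3 members were called in the 5 comparisons; Ctsd was gained in BL6 (adjusted p = 0.0478) and Wipi1 was lost between operated strains. Same-numbered samples did not deviate together throughout (mean correlation −0.141 in BL6, 0.092 in MRL, 0.16 and 0.165 between strains). For samples of other numbers the mean correlations were 0.053, −0.041, −0.046 and −0.044. In the 4 comparisons, 0, 4, 4 and 3 of 8 samples correlated best with their own number, so pairing by number is neither shown nor excluded. Over all genes, the interaction called 29 in the main fit, 2 with the block and 250 with DESeq2. For the other comparisons the number of all genes called under each alternative is not given here. The changes in the number of members called therefore cannot be read against the background. Causes of these changes were not tested. Depth limits only the lowest members, since 3 counts are at most 0.123 CPM.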
